A study of Mus musculus with 6 samples.

Results

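The FGF genes described here are 41 mouse genes: the FGF ligands that lie outside the Fgf3, Fgf4 and Fgf15 cluster of chromosome 7, the FGF receptors, their binding proteins and adaptors, and the genes by which cells report and restrain FGF signalling. They were taken by gene symbol, with no cutoff on their values, from the 24063 symbols of the count tables, and all 41 were found. Earlier results of these data were known when they were chosen. RNA was sequenced from 3 penile tumors of SA mice (PB-Cre+ Smad4L/L ApcL/L) and 3 normal penile samples of WT mice (wild type, C57BL/6), all at 5 months of age. In SA mice the Cre recombinase comes from the PB-Cre4 transgene, driven by a probasin-based, androgen-responsive promoter that is active in penile epithelium, so both floxed genes can be lost only in cells in which that promoter was used, and the tumors arose with no carcinogen. The labels count 3 SA mice and do not say whether each WT sample came from a mouse of its own, so the p-values measure the spread between these samples. The question put to the data was which members of the FGF pathway differed between tumor and normal tissue.

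FGF ligands bind tyrosine kinase receptors together with heparan sulfate. The receptors signal through docking adaptors to RAS and ERK, and ERK activity in turn induces PEA3-type ETS factors, Sprouty proteins and the phosphatase Dusp6, which are widely used as readouts of FGF activity although other receptors reach them too. In skin and genital tissue, ligands made by stroma and receptors on epithelium form a well-known exchange, and FGFs direct the outgrowth of the external genitalia and of hair follicles.

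The gene rows held 24466536 to 110509147 counts per sample, the third SA tumor being the deepest, and 3 counts corresponded to 0.0244 to 0.137 CPM, the count scaled to the size of the library. The intervals and limits quoted here cover counting error only. Smad4 was measured at 36.6, 36.1 and 46.1 CPM in the SA tumors and at 61.2, 69.7 and 72.5 CPM in the WT penises, a log2 fold change of -0.77 (SE, the error of the log2 value, 0.13, adjusted p = 0.00114, edgeR). Apc was measured at 253, 194 and 197 CPM against 62.5, 85.3 and 91.1 CPM, a log2 fold change of 1.43 (adjusted p = 0.000185, edgeR). These counts cover whole transcripts in bulk tissue, and the deleted part of Apc is not given in the sources used here, so the Apc count does not check the label. The samples are labelled penile epithelium, and the sum of 6 stratified epithelium markers was 10931 to 13205 CPM in SA tumors and 19786 to 23574 CPM in WT penises. WT samples also held 1539 to 2056 CPM of 6 smooth muscle markers, against 35.6 to 124 CPM in SA tumors, and all 6 fell. The sum of 8 fibroblast markers was 1441, 4081 and 5158 CPM in the SA tumors and 6305 to 6612 CPM in WT penises, and none of the 8 was at 0. Schwann cell markers were at 36.0 to 52.7 CPM against 185 to 223 CPM. Leukocyte markers were at 657 to 1190 CPM against 53.4 to 92.0 CPM, cartilage and bone markers at 15.6 to 27.2 CPM against 1.07 to 1.59 CPM, and adipocyte markers at 0.211 CPM or less in every sample. Most of the leukocyte sum was S100a8, at 734, 582 and 1034 CPM in SA tumors and 32.8 to 63.5 CPM in WT penises. S100a8 and Csf3r rose. Ptprc, Itgam and Cd3e did not pass, with log2 fold changes of 1.60, 1.19 and 1.34. The part of these differences in cell content in the values of the FGF genes was not tested, apart from the ratios to marker sums given with the members that were lower. In bulk samples fewer cells of a type and less RNA per cell cannot be told apart.

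Of the 41 FGF genes, 35 had enough counts to be tested, and 14 of these rose and 8 fell in SA tumors at an adjusted p-value under 0.01 (edgeR's quasi-likelihood test, adjusted over all 16336 genes tested). Of all genes tested, 37.6% passed, 20.1% as higher and 17.5% as lower in SA tumors. At a change of at least 4-fold in addition, 8 FGF genes rose and 3 fell, where 9.41% of all genes tested rose and 3.59% fell. The 8 were the ligands Fgf5, Fgf8, Fgf9 and Fgf20, the receptor-like gene Fgfrl1, the inhibitor Spry4 and the transcription factors Etv4 and Etv5. The 3 that fell were the ligand Fgf10, the intracellular factor Fgf12 and the receptor Fgfr3. Fgf5, Fgf8 and Fgf20 passed the count filter (0.380 CPM in 3 samples) through the SA tumors alone. Fgfr4, which fell by less than 4-fold, and Kl, which was not called, passed it through the WT penises alone. For these genes the direction of a call, or of values without overlap, was set by the filter. Among the 35 tested, SA and WT values did not overlap for 16 FGF genes that were higher and 10 that were lower in the tumors. Of all genes tested, 63.4% did not overlap, 32.7% as higher and 30.7% as lower. The 35 had a median log2 fold change of 0.38, and all genes tested one of 0.03. With library totals as the only scaling, the median of all genes was 0.31, and 74.4% of all calls were increases in place of 53.4%. The FGF genes then had 15 increases and 7 decreases.

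**Figure D1:**
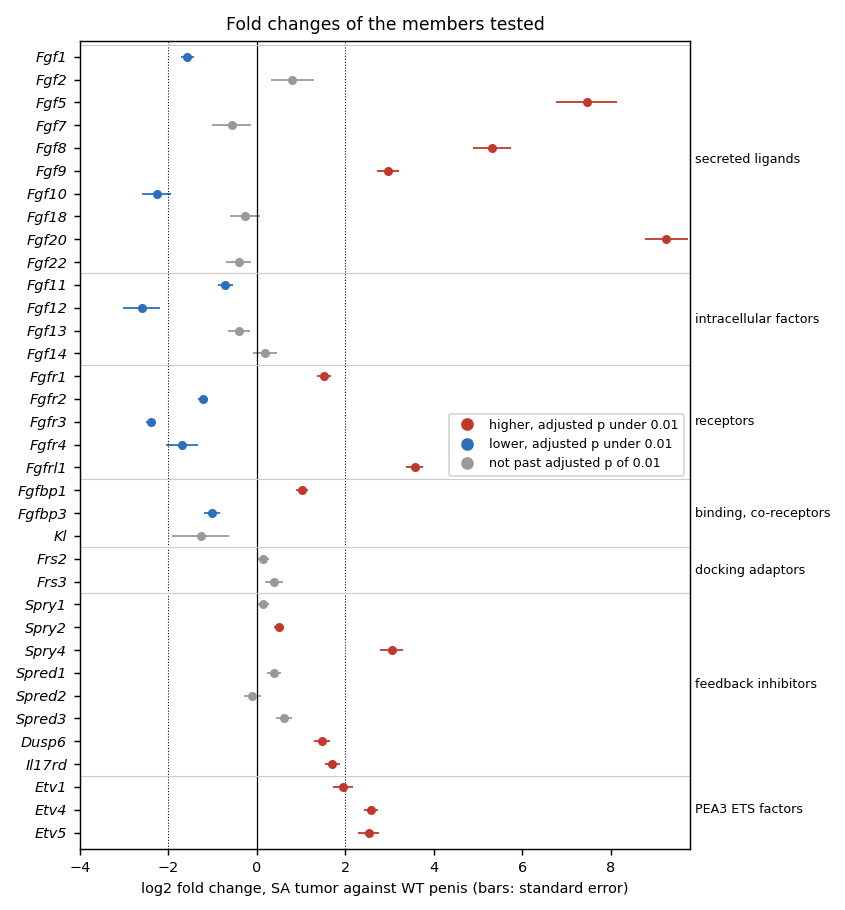
Log2 fold changes of the 35 tested FGF genes (horizontal axis, SA tumor against WT penis, bars give the standard error), grouped by role. Red points rose and blue points fell at an adjusted p-value under 0.01, gray points did not pass, and dotted lines mark the 4-fold change; all 3 ETS factors lie to the right of 0, and the receptors lie on both sides, from -2.39 for Fgfr3 to 3.57 for Fgfrl1.

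The secreted ligands are given by subfamily. Of the 13 paracrine ligands among the members, 10 were tested, 4 rose and 2 fell. That is 60% of those tested, beside 37.6% of all genes tested. Fgf5, Fgf8 and Fgf20, among those that rose, entered the test through the SA tumors alone, so a fall could not have been called. In the Fgf9 subfamily, Fgf20 (NM_030610, chr8:40279166-40286953), a ligand known from inner ear and hair placode development, was at 47.8, 27.5 and 30.0 CPM in the SA tumors and at 0.136, 0.0334 and 0 CPM in the WT penises. Every SA tumor was far above every WT penis, where Fgf20 rested on 3, 1 and 0 counts. The log2 fold change was 9.26 (SE 0.49, adjusted p = 3.61e-06), and the ratio of pooled counts was 597 with a 95% counting interval of 233 to 2191. Fgf9 (NM_013518, chr14:58070671-58112854), known for roles in lung and testis, was at 8.32, 6.12 and 7.87 CPM in SA tumors and 1.18, 0.835 and 0.866 CPM in WT penises. It was thus expressed in both tissues and 7.76-fold higher in the tumors, with a log2 fold change of 2.96 (SE 0.25, adjusted p = 3.12e-05). Fgf16, the remaining member of this subfamily, had 0.265 to 0.544 CPM in SA tumors and 0.267 to 0.407 CPM in WT penises, overlapping values too low for the test.

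Fgf5 (NM_010203, chr5:98254184-98277033), of the Fgf4 subfamily and known for ending the growth phase of hair, was at 2.86, 3.81 and 2.11 CPM in the SA tumors. In WT penises it had 1 count in the first sample and none in the others. The log2 fold change was 7.46 (SE 0.68, adjusted p = 4.84e-05), and the ratio of pooled counts was 186 with a counting interval of 33.2 to 7348. Fgf6 of the same subfamily, a ligand of skeletal muscle, had counts in the third SA tumor only, at 0.00812 CPM, which is below the level of 3 counts. Fgf8 (NM_010205, chr19:45736491-45742941), a ligand of the limb bud ridge and of the genital tubercle, was at 1.90, 1.59 and 1.71 CPM in SA tumors and so varied little between tumors. The WT penises had 1 count each, at 0.0334 to 0.0456 CPM. The log2 fold change was 5.31 (SE 0.43, adjusted p = 2.40e-05), and the pooled ratio was 42.3 with a counting interval of 14.3 to 206. The other members of the Fgf8 subfamily did not pass. Fgf18, known for its role in cartilage, had a log2 fold change of -0.26 (adjusted p = 0.545), and Fgf17, which was not tested, had 0.106 to 0.397 CPM in SA tumors and 0.0452 to 0.182 CPM in WT penises.

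In the Fgf7 subfamily, Fgf7 and Fgf10 act from stroma on epithelium in many organs. Fgf10 (NM_008002, chr13:118714699-118792573), which drives the budding of limbs and lungs, was at 2.04, 4.14 and 5.73 CPM in SA tumors and 19.1, 21.1 and 18.5 CPM in WT penises. No tumor came near the WT range, and Fgf10 was 4.93-fold lower, with a log2 fold change of -2.26 (SE 0.32, adjusted p = 0.000530). Without the first SA tumor it was -1.97, still called but short of 4-fold. Fgf7, the keratinocyte growth factor, was at 3.79, 11.1 and 15.6 CPM in SA tumors and 14.2, 14.9 and 16.7 CPM in WT penises. The third tumor lay within the WT range and the first far below it, and the log2 fold change of -0.57 did not pass (adjusted p = 0.312). Fgf22, of the same subfamily, was at 6.04 to 12.2 CPM in SA tumors and 10.8 to 16.3 CPM in WT penises, with a log2 fold change of -0.41 (adjusted p = 0.248).

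Among SA tumors, the sum of the 8 fibroblast markers was lowest in the first tumor and highest in the third. Fgf1, Fgf2, Fgf7, Fgf10 and Fgf12 had this order, as did Fgfr1, Fgfr4, Spry1 and Spry4, so it was not limited to genes that fell. Of those markers Thy1 rose and Dcn fell, and the other 6 did not pass. Divided by the fibroblast sum, Fgf10 was 1.01 to 1.42 CPM per 1000 marker CPM in SA tumors and 2.79 to 3.35 in WT penises, a log2 difference of -1.36 without overlap. Fgf7 was 2.63 to 3.03 in SA tumors and 2.17 to 2.53 in WT penises on the same scale, a log2 difference of 0.25, again without overlap. Relative to this sum Fgf10 was thus lower and Fgf7 slightly higher. The sum is weighted toward genes such as Col3a1, at 2345 to 2398 CPM in WT penises, where Pdgfra was at 81.2 to 81.6 CPM. Pdgfra was at 77.9, 174 and 267 CPM in SA tumors, so relative to Pdgfra alone Fgf7 was lower. Dpt was at 4.76 to 38.6 CPM in SA tumors and 146 to 169 CPM in WT penises. Relative to Dpt alone Fgf10 was not lower, and the contrast depends on the markers used. These ratios were computed after the data had been seen and carry no test.

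**Figure D2:**
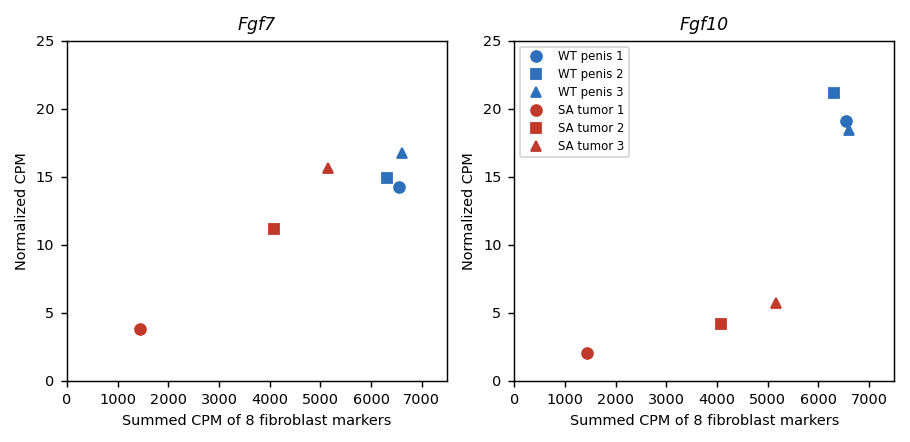
Normalized CPM of Fgf7 and Fgf10 (vertical axes) against the summed CPM of 8 fibroblast markers (horizontal axes), 1 point per sample, SA tumors in red and WT penises in blue. The SA tumor with 5158 marker CPM has 15.6 CPM of Fgf7, within the WT values of 14.2 to 16.7, and 5.73 CPM of Fgf10, below the WT values of 18.5 to 21.1.

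Fgf1, which binds all FGF receptors and lacks a signal peptide, was at 16.0, 22.0 and 23.6 CPM in SA tumors and 61.6, 59.9 and 61.8 CPM in WT penises. The WT values lay close together and above all tumors, with a log2 fold change of -1.57 (SE 0.15, adjusted p = 5.89e-05). Per 1000 fibroblast marker CPM the groups overlapped, at 4.58 to 11.1 and 9.34 to 9.49, and per 1000 stratified epithelium marker CPM they did not, at 1.40 to 2.01 and 2.61 to 3.12. Fgf2, also of the Fgf1 subfamily, had a log2 fold change of 0.81 that did not pass (adjusted p = 0.194), with 0.780 to 2.10 CPM in SA tumors and 0.497 to 1.46 CPM in WT penises.

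Levels of different ligands can be compared only per transcript length, for which the deposited TPM values were used, which divide each count by transcript length and sum to the same total in every sample, and which are not compared gene by gene between the groups. In WT penises the ligands with the highest TPM were Fgf22 (35.6 ± 6.05, SD, n = 3), Fgf1 (21.4 ± 1.32), Fgf7 (7.88 ± 1.11) and Fgf10 (5.87 ± 0.556). In SA tumors they were Fgf4 (44.1 ± 14.4), Fgf20 (42.3 ± 13.7), Fgf22 (35.0 ± 10.9), Fgf3 (23.5 ± 7.58), Fgf15 (9.61 ± 2.40) and Fgf1 (9.33 ± 1.86), where Fgf3, Fgf4 and Fgf15 belong to the chromosome 7 cluster and are given for their level only. In SA tumors the TPM ranges of Fgf4, Fgf20 and Fgf22 overlapped, that of Fgf3 overlapped with Fgf22, and those of Fgf15, Fgf1 and Fgf7 overlapped with each other. Fgf22 rests on a row of only 489 bases. The 16 secreted ligands summed here are the 13 paracrine members and Fgf3, Fgf4 and Fgf15, without Fgf21 and Fgf23. Fgf20 made up 19.0 to 26.0% of their summed TPM in SA tumors and at most 0.152% in WT penises. The chromosome 7 ligands made up 37.0 to 45.8% and at most 0.402%. The summed ligand TPM was 166 to 223 in SA tumors and 71.4 to 77.6 in WT penises. From normalized CPM per kilobase of transcript it was 90.8 to 125 and 51.2 to 60.6, so the groups did not overlap on either scale. Fgf5, Fgf8 and Fgf9, which rose by more than 4-fold, remained at 2.06 ± 0.532, 2.56 ± 0.281 and 3.20 ± 0.582 TPM in the tumors.

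**Figure D3:**
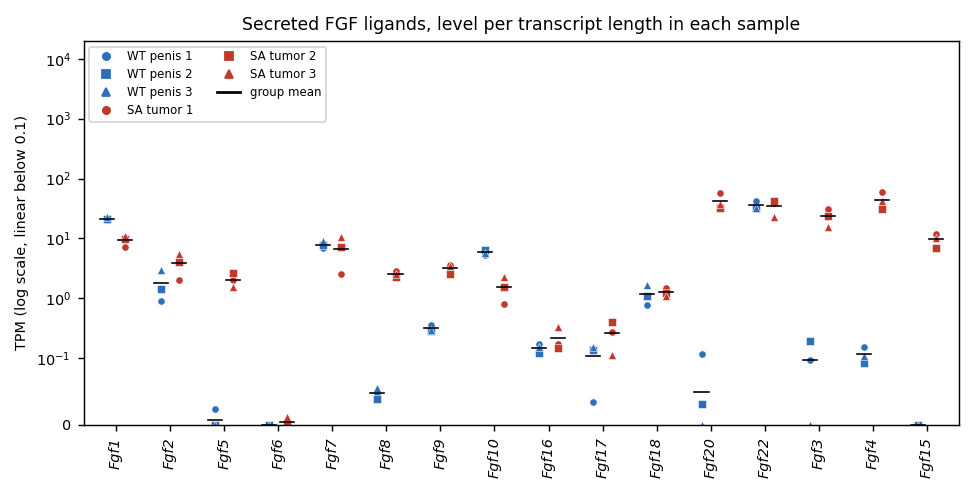
Deposited TPM of the 16 secreted ligands (vertical axis, log scale, linear below 0.1), 1 point per sample, WT penises in blue and SA tumors in red, with the mean of each group as a bar. Fgf20 lies at 31.9 to 57.9 TPM in SA tumors and at 0.118 TPM or less in WT penises, where Fgf22 and Fgf1 have the highest means.

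Fgf21 and Fgf23, the hormone-like ligands among the members, were near the limit of these libraries. Fgf21, a metabolic hormone, had 0.0743 to 0.252 CPM in SA tumors and 0 to 0.0456 CPM in WT penises, and Fgf23, a regulator of phosphate, had 0.166 to 0.557 CPM against 0.0456 to 0.0904 CPM. Values did not overlap for either gene, but both were left out of the test for low counts. With no filter on low counts their adjusted p-values were 0.0343 and 0.0189 in edgeR. The pooled ratios were 8.01 (counting interval 2.07 to 68.5) and 5.26 (2.14 to 16.7).

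The intracellular FGF homologous factors are not secreted and bind voltage-gated sodium channels. Of the 4, none rose and 2 fell. That is 50%, all as lower, beside 37.6% of all genes tested, 17.5% as lower. Fgf12 (NM_183064, chr16:28157783-28753243) was at 0.186, 0.463 and 0.715 CPM in SA tumors and 2.49, 3.30 and 3.28 CPM in WT penises. All tumors were below all WT penises, by 6.65-fold on average, with a log2 fold change of -2.60 (SE 0.42, adjusted p = 0.00100). Relative to the fibroblast sum Fgf12 was lower by a log2 difference of -1.87, without overlap. Relative to Dpt alone the Fgf12 values of the groups overlapped, so this contrast depends on the markers used. Schwann cell markers, of which 3 of 4 fell, moved with Fgf12 between the groups, and their part in its value was not tested. Fgf11 was at 4.70 to 5.88 CPM in SA tumors and 8.50 to 9.05 CPM in WT penises, with a log2 fold change of -0.71 (SE 0.17, adjusted p = 0.00675). This call held in 1 of 6 fits that left out a sample. Relative to both marker sums the Fgf11 values overlapped and the direction turned, with log2 differences of 0.34 for fibroblast and 0.13 for stratified epithelium markers. Relative to Cdh1 alone, a stratified epithelium marker that did not pass, Fgf11 was lower without overlap, so the turn depends on the markers used. Fgf13 and Fgf14 had log2 fold changes of -0.40 (adjusted p = 0.208) and 0.19 (adjusted p = 0.586).

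All 5 receptors passed the test, where 37.6% of all genes tested did, and their directions differed. Fgfr1 (NM_010206, chr8:25518759-25575718), in most tissues the receptor of mesenchyme, was at 294, 367 and 419 CPM in SA tumors and 110, 121 and 144 CPM in WT penises. It rose by a log2 fold change of 1.52 (SE 0.16, adjusted p = 8.98e-05). Fgfr2 (NM_010207, chr7:130162451-130266808), whose epithelial form is the receptor of Fgf7 and Fgf10, was at 101, 97.9 and 121 CPM in SA tumors and 232, 256 and 259 CPM in WT penises. It fell by a log2 fold change of -1.22 (SE 0.11, adjusted p = 5.19e-05). Fgfr3 (NM_001163217, chr5:33721724-33737068), a receptor of epidermis and of growth plate cartilage, was at 69.2, 65.8 and 78.6 CPM in SA tumors and 372, 372 and 378 CPM in WT penises. The groups were far apart and each was narrow, and Fgfr3 was 5.25-fold lower in the tumors (log2 fold change -2.39, SE 0.10, adjusted p = 1.98e-06). Fgfr4 was scarce, at 0.149, 0.199 and 0.203 CPM in SA tumors and 0.633, 0.701 and 0.501 CPM in WT penises. Its log2 fold change of -1.69 (SE 0.36, adjusted p = 0.00468) lost the call in all 6 fits that left out a sample.

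Stratified epithelium markers were also lower in SA tumors: Krt5, Trp63 and Perp fell, and Krt14, Cdh1 and Dsg3 did not pass. Per 1000 CPM of the 6 markers, Fgfr3 was 5.96 to 6.06 CPM in SA tumors and 15.8 to 19.1 CPM in WT penises, a log2 difference of -1.54. Fgfr2 on this scale was 8.79 to 9.19 CPM in SA tumors and 9.84 to 13.1 CPM in WT penises, a log2 difference of -0.38. Neither overlapped on this scale. Set against each of the 6 markers alone, Fgfr3 was lower without overlap for all 6, with log2 differences from -2.44 to -1.10. Fgfr2 was lower without overlap for 4 and overlapped for Krt5 and Perp, with log2 differences of -0.01 and 0.07. Per fibroblast marker CPM Fgfr2 overlapped too, with a log2 difference of -0.17.

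In the summed TPM of the 4 signalling receptors, Fgfr3 made up 56.1 ± 1.85% in WT penises (SD, n = 3), Fgfr2 28.8 ± 0.848%, Fgfr1 15.0 ± 1.45% and Fgfr4 0.118 ± 0.0223%. In SA tumors Fgfr1 made up 65.0 ± 3.08%, Fgfr2 18.7 ± 1.48%, Fgfr3 16.2 ± 1.63% and Fgfr4 0.0530 ± 0.00463%. The leading receptor was Fgfr3 in every WT penis and Fgfr1 in every SA tumor. In WT penises no neighbours in this order overlapped, and in SA tumors the ranges of Fgfr2 and Fgfr3, at 17.4 to 20.3% and 15.1 to 18.1%, did. The summed receptor level depended on the scale. In TPM it was 170 to 231 in SA tumors and 204 to 249 in WT penises, with overlap, and in normalized CPM per kilobase of transcript it was 95.1 to 126 and 159 to 173, lower in SA tumors without overlap.

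**Figure D4:**
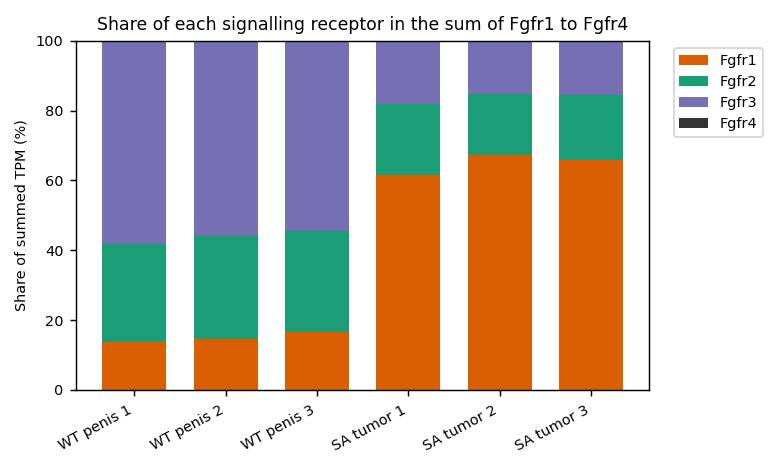
Share of Fgfr1, Fgfr2, Fgfr3 and Fgfr4 in their summed TPM (vertical axis, percent), 1 bar per sample. Fgfr3 makes up 54.5 to 58.1% of the sum in the 3 WT penises, and Fgfr1 makes up 61.5 to 67.4% in the 3 SA tumors; Fgfr4 is too small to be seen.

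Fgfr1 to Fgfr3 are spliced to epithelial (IIIb) and mesenchymal (IIIc) forms that bind different ligands. The deposited counts do not separate them, since a read that fits several transcripts was counted in each. For Fgfr3, the row NM_001163217 was the only one of 5 with the 151-base exon at chr5:33731281-33731431, where the other 4 have a 145-base exon at chr5:33732117-33732261. It held the most counts of the 5 in all 6 samples, 1.34 to 3.56% more than the others. The rows also differ in other exons, so these differences give no share of either form.

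Fgfrl1 (NM_054071, chr5:108694229-108706950), a receptor-like protein that binds FGFs and has no kinase domain, was at 164, 175 and 118 CPM in SA tumors and 12.2, 15.4 and 10.8 CPM in WT penises. The lowest tumor was above the highest WT penis by a wide margin, and Fgfrl1 was 11.9-fold higher on average (log2 fold change 3.57, SE 0.20, adjusted p = 4.46e-06). Within SA tumors its level was 101 ± 17.8 TPM, beside 127 ± 23.8 TPM for Fgfr1. Within WT penises it was 6.60 ± 1.30 TPM, beside 34.4 ± 6.64 TPM for Fgfr1. In the tumors the TPM ranges of Fgfrl1 and Fgfr1 overlapped.

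Promoter windows are shown for Fgfrl1, Etv5 and Fgfr3, which changed by at least 4-fold among the receptors and ETS factors, so that a gene of each direction can be read. Etv4 is not shown, nor is the inhibitor Spry4, and of a pair of windows each for Etv5 and Fgfr3 only 1 is. Each runs from 250 bases before to 50 bases after a transcript start in RefSeq on GRCm38.p6, the assembly of mm10, and is written 5′ to 3′ on the strand of the gene. Capitals mark the ETS core (CCGGAAGT or its reverse complement ACTTCCGG).

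Fgfrl1, chr5:108693979-108694278 (+ strand): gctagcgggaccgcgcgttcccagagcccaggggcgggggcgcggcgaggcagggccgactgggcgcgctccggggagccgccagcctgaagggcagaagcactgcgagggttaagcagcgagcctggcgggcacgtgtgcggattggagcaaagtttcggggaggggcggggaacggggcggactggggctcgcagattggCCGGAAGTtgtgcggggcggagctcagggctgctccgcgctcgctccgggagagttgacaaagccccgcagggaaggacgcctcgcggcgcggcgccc

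Etv5, chr16:22439521-22439820 (- strand): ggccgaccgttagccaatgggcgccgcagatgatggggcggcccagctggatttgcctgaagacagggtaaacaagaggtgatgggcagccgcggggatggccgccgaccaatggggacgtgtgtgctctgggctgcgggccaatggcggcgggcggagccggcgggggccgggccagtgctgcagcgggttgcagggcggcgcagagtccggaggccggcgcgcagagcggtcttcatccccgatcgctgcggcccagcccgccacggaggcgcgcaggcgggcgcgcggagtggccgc

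Fgfr3, chr5:33721474-33721773 (+ strand): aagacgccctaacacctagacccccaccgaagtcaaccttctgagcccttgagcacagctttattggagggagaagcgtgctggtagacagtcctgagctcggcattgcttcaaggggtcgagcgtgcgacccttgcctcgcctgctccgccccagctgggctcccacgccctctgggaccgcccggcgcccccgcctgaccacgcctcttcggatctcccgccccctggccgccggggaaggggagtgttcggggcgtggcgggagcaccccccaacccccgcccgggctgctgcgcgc

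The Fgfrl1 window holds 1 ETS core, 48 bases before the start. This core occurs in 3.89% of the 32851 RefSeq promoter windows. The 33 FGF genes that have a window have 42 of them, and the core occurs in those of 2 genes, Fgfrl1 and Frs2. The TCF/LEF core (CTTTGAT or ATCAAAG) occurs in 3.73% of windows and in that of 1 FGF gene, Fgf6. The Etv5 and Fgfr3 windows, shown or not, hold neither set of letters. The 3 windows shown are 73.7%, 74.0% and 69.7% G and C, against a median of 52.7% over all windows. The windows not shown are 60.0% for Etv5 and 73.0% for Fgfr3. A match of letters is a description of the sequence and shows no binding.

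Fgfbp1, a secreted protein that releases FGFs from the matrix, was at 115, 98.7 and 84.0 CPM in SA tumors and 53.1, 50.4 and 43.6 CPM in WT penises. It rose by a log2 fold change of 1.02 (SE 0.14, adjusted p = 0.000398). Fgfbp3 of the same family fell, from 7.01 to 7.82 CPM in WT penises to 3.38 to 4.07 CPM in SA tumors (log2 fold change -1.02, SE 0.18, adjusted p = 0.00151). Relative to the stratified epithelium sum the Fgfbp3 values overlapped, with a log2 difference of -0.17. The klotho co-receptors, which hormone-like FGFs need, were scarce. Kl, the partner of Fgf23, was at 0 to 0.331 CPM in SA tumors and 0.497 to 0.638 CPM in WT penises, with no count in the first tumor, and did not pass (log2 fold change -1.27, adjusted p = 0.133). It entered the test through the WT penises alone. Klb, the partner of Fgf21, was at 0.0650 to 0.132 CPM against 0.167 to 0.228 CPM and was not tested. The docking adaptors Frs2 and Frs3, which link the receptors to RAS and ERK, had log2 fold changes of 0.14 (adjusted p = 0.432) and 0.38 (adjusted p = 0.143).

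The PEA3 ETS factors and the feedback inhibitors were higher or did not pass. All 3 PEA3 ETS factors rose, where 20.1% of all genes tested did. Etv4 (NM_008815, chr11:101769747-101785310) was at 151, 134 and 118 CPM in SA tumors and 18.2, 26.0 and 22.9 CPM in WT penises, 6.01-fold higher (log2 fold change 2.58, SE 0.16, adjusted p = 6.25e-06). Etv5 (NM_023794, chr16:22381313-22439570) was at 147, 108 and 78.1 CPM in SA tumors and 16.2, 19.1 and 22.4 CPM in WT penises, 5.77-fold higher (log2 fold change 2.53, SE 0.24, adjusted p = 7.95e-05). The spread of Etv5 between tumors was wider than that of Etv4, and neither overlapped with WT. Etv1 was at 9.85, 7.51 and 11.5 CPM against 2.26, 2.47 and 2.78 CPM, a log2 fold change of 1.95 (SE 0.22, adjusted p = 0.000147). Per length, Etv4 was highest of the 3 in SA tumors, at 102 ± 12.2 TPM, above Etv5 at 51.5 ± 16.0 TPM and Etv1 at 4.16 ± 0.994 TPM.

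Of the 8 feedback inhibitors, 4 rose, none fell and 4 did not pass. That is 50%, all as higher, beside 37.6% of all genes tested, 20.1% as higher. Spry4, a Sprouty protein that restrains RAS and ERK signalling, was at 30.0, 35.0 and 42.2 CPM in SA tumors and 2.58, 4.87 and 5.47 CPM in WT penises, 8.29-fold higher (log2 fold change 3.05, SE 0.27, adjusted p = 4.20e-05). Dusp6, the cytoplasmic phosphatase of ERK, was at 269, 177 and 199 CPM in SA tumors and 69.1, 92.5 and 71.5 CPM in WT penises (log2 fold change 1.47, SE 0.18, adjusted p = 0.000247). Il17rd, also called Sef, a membrane inhibitor of FGF signalling, was at 39.7, 29.1 and 42.7 CPM in SA tumors and 10.5, 11.0 and 12.5 CPM in WT penises (log2 fold change 1.71, SE 0.17, adjusted p = 6.50e-05). For none of these 3 did a tumor overlap with a WT penis.

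The Sprouty genes differed in the size of their change. Spry2 was at 51.1, 47.1 and 47.2 CPM in SA tumors and 37.4, 34.0 and 31.6 CPM in WT penises, a log2 fold change of 0.50 (SE 0.10, adjusted p = 0.00410) whose call held in 2 of 6 fits that left out a sample. Spry1 was at 38.5 to 46.3 CPM in SA tumors and 35.0 to 41.2 CPM in WT penises and did not pass (log2 fold change 0.15, adjusted p = 0.308). Spry1 and Spry2 were thus well expressed in WT penises, where Spry4 was low. On the TPM scale Spry4 was at 1.31 ± 0.523 in WT penises, beside 21.6 ± 3.11 for Spry1 and 22.5 ± 0.595 for Spry2. Within SA tumors the 3 were at 13.8 ± 2.64, 30.8 ± 3.14 and 41.2 ± 2.57. These TPM values order the genes within a group, and the change of each gene between groups is its log2 fold change. The Spred proteins, which inhibit the activation of RAF, did not pass: Spred1, Spred2 and Spred3 had log2 fold changes of 0.39 (adjusted p = 0.0731), -0.10 (adjusted p = 0.697) and 0.62 (adjusted p = 0.0208).

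**Figure D5:**
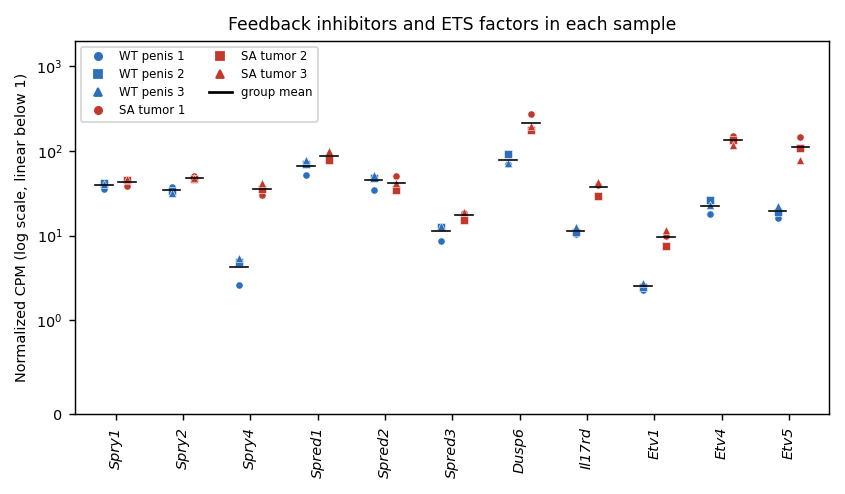
Normalized CPM of the 8 feedback inhibitors and 3 ETS factors (vertical axis, log scale, linear below 1), 1 point per sample, WT penises in blue and SA tumors in red, with the mean of each group as a bar. Spry4 lies at 2.58 to 5.47 CPM in WT penises and 30.0 to 42.2 CPM in SA tumors, whereas the values of Spry1, Spred1 and Spred2 overlap.

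The other genes of the pathway were taken from lists chosen by role. Among 14 cell-surface heparan sulfate and FLRT cofactors of FGF receptors, 13 were tested, 6 rose (Gpc1, Gpc2, Gpc3, Gpc4, Flrt1 and Flrt3) and 2 fell (Sdc1 and Sdc4), with a median log2 fold change of 0.73. Thus 61.5% of those tested passed, beside 37.6% of all genes. The glypican Gpc1 was at 482, 458 and 390 CPM in SA tumors and 103, 90.5 and 87.4 CPM in WT penises (log2 fold change 2.24, SE 0.12, adjusted p = 3.73e-06). The syndecan Sdc4 was at 119, 133 and 112 CPM in SA tumors and 320, 294 and 315 CPM in WT penises (log2 fold change -1.35, SE 0.10, adjusted p = 1.79e-05). Of 10 enzymes that build or trim heparan sulfate, 4 rose and none fell, with a median of 0.35. That is 40%, near the 37.6% of all genes tested. The 6-O-sulfotransferase Hs6st2 was at 6.99, 3.97 and 7.23 CPM in SA tumors and 0.226, 0.267 and 0.273 CPM in WT penises (log2 fold change 4.55, SE 0.36, adjusted p = 2.22e-05). Every WT value of Hs6st2 was under the filter level of 0.380 CPM, so it entered the test through the SA tumors alone. Hs6st1, Ext1 and Sulf2 rose by log2 fold changes of 1.28, 1.05 and 0.93.

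Few genes of the RAS-ERK cascade itself passed. Of its 20 genes, 1 rose (Nf1, a RAS inactivator, log2 fold change 0.93) and 3 fell, among them Gab1 (-0.58) and Mapk3 (-0.62), with a median of 0.02. That is 20%, beside 37.6% of all genes tested. Of 15 further genes known to respond to ERK, 3 rose and 4 fell (46.7% against the same 37.6%), with a median of -0.23. Dusp4 and Phlda1 rose from 0.678 to 1.37 CPM and from 8.79 to 12.5 CPM in WT penises to 20.1 to 24.3 CPM and 217 to 305 CPM in SA tumors (log2 fold changes 4.37 and 4.60, adjusted p = 3.98e-06 and 1.78e-06), and Ier3 rose by 1.43. Epha4, Epha2, Ier2 and Dusp5 fell, with log2 fold changes from -1.07 to -0.56. The immediate early genes varied widely between WT penises. Fos was at 3.71, 519 and 35.5 CPM in WT penises and 23.7 to 29.6 CPM in SA tumors, and Egr1 at 80.0, 496 and 129 CPM and 36.9 to 56.0 CPM, so the second WT sample stood apart. For Etv4, Etv5, Spry4 and Dusp6 this sample was at 26.0, 19.1, 4.87 and 92.5 CPM, below every tumor, and all 4 calls held without it. The ERK-responsive genes outside the feedback and ETS groups thus included genes that rose, fell and did not pass.

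No SA tumor was highest throughout. Of the 35 tested FGF genes, the first SA tumor was highest in 11, the second in 8 and the third in 16. The highest tumor exceeded the lowest by a median factor of 1.39 over the 34 of these genes with counts in every tumor, and the highest WT penis exceeded the lowest by 1.33 over the 33 with counts in every WT penis.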

How the data were processed

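RNA of 3 SA tumors and 3 WT penises was sequenced as stranded 76-nt read pairs. Alignment to mm10 was by TopHat and counting by HTSeq (versions are not given in the sources used here), and the count that the authors deposited for every RefSeq transcript is raw. The deposited FPKM values, which the authors derived from the counts, served only to work out the transcript length of each row. These lengths were used for CPM per kilobase. The deposited TPM values served for levels between genes and for sums and shares of them. Of 24063 symbols, 4914 (14 of the 41 FGF genes) had several transcript rows, and reads that fit several were counted in each, so the row with the highest mean count stood for the gene.

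Counts were tested with edgeR 4.0.16 in R 4.3.3: filterByExpr (0.380 CPM in 3 samples), TMM scaling (also of the CPM values shown), robust quasi-likelihood F-tests and Benjamini-Hochberg adjustment over all 16336 genes. The thresholds were the study's, an adjusted p-value under 0.01 and, where stated, a 4-fold change. DESeq2, used by the authors, was an alternative here. The method was tested on simulated data. All 41 FGF genes are named, with values per sample for those past 4-fold and for the signalling receptors. The FGF genes, the lists and markers were chosen with earlier results of these data known. Coordinates and sequences are from RefSeq, GRCm38.p6, to which all 41 matched by accession. Alternatives were DESeq2 1.42.0, limma-voom (limma 3.58.1), other scalings, filters and thresholds, summed transcript rows, glmTreat, a model with a replicate block, and fits without each sample. Ratios to markers and sums of CPM per kilobase were added after the data had been seen. Pathway and marker lists had no set test. Of the genes in those lists, 1 is not reported here.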

Additional observations from a re-analysis of the deposited data

How the results depend on the processing

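The counts of FGF genes that rose (14) and fell (8), and of those past 4-fold (8 and 3), stayed within 1.5 times under all alternatives but edgeR's glmTreat, which tests for a change beyond 4-fold and left 1 gene that fell (Fgfr3) and 7 that rose. Fgf10, Fgf12 and Etv5 did not pass it (adjusted p = 0.670, 0.266 and 0.0755). Leaving out each sample gave 13 to 14 genes that rose and 6 to 7 that fell, and 8 to 9 and 2 to 3 past 4-fold. Of 15 alternatives to the fit, Fgf11 and Spry2 kept their call in 7 and 10, and Spred3 gained one in 2. Fgfr4 kept its call in 6 of 14. The replicate numbers of the labels did not pair the samples, since residuals of same-numbered samples correlated at -0.13 to 0.02, and with the replicate number as a block 13 rose, 6 fell, and 8 and 3 passed 4-fold. The sign turned for Fgf18 with library totals only (0.022) and without the third WT penis (-0.46 to 0.017 over the samples left out), and for Spred2 with library totals only (0.19), without the second SA tumor (0.029) and without the third WT penis (0.0085, in a range of -0.27 to 0.029). Neither gene was called. Relative to the fibroblast sum, added after the data were seen, the sign turned for Fgf11 (0.34), Fgfbp3 (0.037) and the uncalled Fgf7 (0.25). Relative to the stratified epithelium sum it turned for Fgf11 (0.13) and Fgf7 (0.041). Ligands with 5 or fewer WT counts have fold changes that depth bounds only loosely.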
